A study of Homo sapiens with 12 samples.

Results

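The comparison described here is AU-15330 against its solvent after 8 h of exposure in Z138, an established human mantle cell lymphoma line listed as wild type. Its members are 5 of the 11 libraries that have a column of their own in the deposited expression table. They are 3 libraries of cells given 0.5 µM AU-15330 and 2 of cells given DMSO, and they were picked by treatment and time in the sample labels. The labels list 12 samples, with DMSO replicates 1 to 3 at 8 h, but the column for DMSO replicate 2 occurs a second time with identical values in place of replicate 3. It was counted once, and whether that column came from replicate 2 or replicate 3 is not settled by the labels. The study also exposed the cells for 24 h, with 3 AU-15330 and 3 DMSO libraries, which the labels place in a batch of their own. Nothing in the labels says that replicates of a group were separate cultures, so p-values measure the spread between these libraries, which may be technical. All libraries are of 1 cell line, and RNA was the only quantity measured.

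AU-15330 is a chimaeric degrader that brings the bromodomain proteins SMARCA4, SMARCA2 and PBRM1 to the VHL ubiquitin ligase. SMARCA4 and SMARCA2 are the alternative ATPase motors of the SWI/SNF (BAF) complexes, which slide or eject nucleosomes and keep enhancers open, and PBRM1 is a bromodomain subunit of the PBAF form. In B lineage cells these enhancers are bound by factors such as PU.1, PAX5 and IRF8, and the genes they serve include receptors and signalling proteins of lymphocytes. Early time points are used with degraders because the changes seen soon after loss of a protein include fewer downstream effects than those seen later. Which genes the complexes bound was not measured.

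Expression is given in normalised counts, obtained by inverting the variance-stabilised log2 values that were deposited, and 59.45 of these units equal 1 CPM, a count scaled to a common library size. Changes are differences in log2(normalised count + 60) between AU-15330 and DMSO with their standard error, so the change of a low gene is understated. Estimated totals were 56087056 to 67572723 counts in the 5 libraries, and 12721 of 20318 entries reached 1 CPM in at least 3 of the series' libraries and were tested with limma. Of the genes for the drug's targets and ligase, SMARCA2 had the largest change in RNA, with SMARCA4 at -0.16 (limma adjusted p = 0.0294), SMARCA2 at -0.48 (limma adjusted p = 0.000261), PBRM1 at 0.00 (limma adjusted p = 0.982) and VHL at 0.02 (limma adjusted p = 0.879). The SMARCA4 call was lost when any of 4 single libraries was left out, with adjusted p from 0.0853 to 0.114. Several markers of B cells and mantle cell lymphoma were present. The B cell gene CD79B was at 173 and 163 CPM in DMSO and 47.9 to 59.4 CPM with AU-15330. CCND1, a marker of mantle cell lymphoma, was at 2463 to 2656 CPM. In the same list CD22 was at 3.36 and 2.65 CPM in DMSO, and CD5 was at or below 0.05 CPM in every library. Of the markers of other cells, CD3D, TRAC, CD14, LYZ and DCN were at or below 0.49 CPM in every library and CD3E reached 0.876 CPM. Others in these lists were higher. The endothelial marker PECAM1 was at 5.34 and 5.30 CPM in DMSO and 2.06 to 3.60 CPM with AU-15330. PRF1 was at 1.54 and 2.37 CPM in DMSO, CD68 at 1.54 to 2.47 CPM in the 5 libraries, and EPCAM reached 1.17 CPM. Summed over 13 T cell and NK cell markers in the table, expression was 36.1 and 38.8 CPM in DMSO and 23.1 to 24.3 CPM with AU-15330, carried by CD247 and CD3G. COL1A1, a collagen gene, was at 16.6 and 10.9 CPM in DMSO and 2.81 to 5.26 CPM with AU-15330. The part of any of these marker groups in the other results was not tested.

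After 8 h, AU-15330 had a broad but mostly small effect, and the large changes were mainly falls. The test called 5624 of 12721 genes (44.2%), with 2907 (22.9%) above DMSO and 2717 (21.4%) below it. The median change of the called genes was 0.34 for those higher and -0.51 for those lower, against 0.02 over all genes. At 1.25-fold or more 1557 genes were higher and 2037 lower, at 1.5-fold 500 and 1160, at 2-fold 122 (0.959%) and 481 (3.78%), and at 4-fold 8 and 56. The 2 directions were nearly even among all calls and falls outnumbered rises at each larger size, and the plot of change against level shows this asymmetry.

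**Figure D1:**
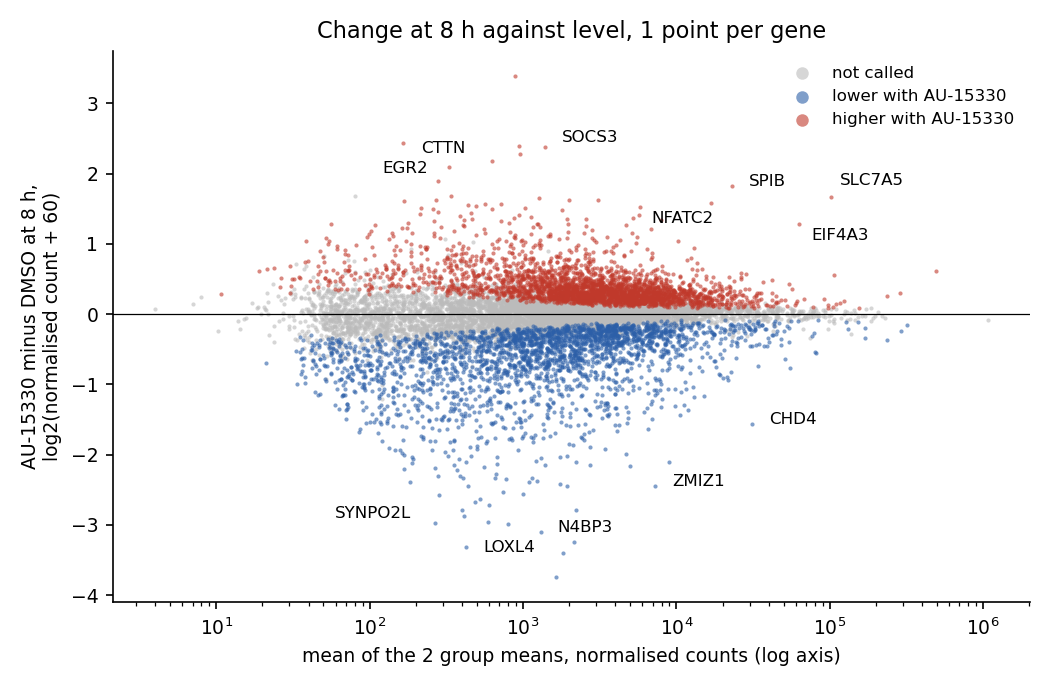
Change after 8 h of AU-15330 (vertical axis, difference in log2(normalised count + 60)) against mean level at 8 h (horizontal log axis, normalised counts). Each point is a tested gene with a symbol, 1 entry per symbol, with genes called lower in blue, called higher in red and not called in grey. Over all 12721 entries tested, 481 called genes were at or below -1 and 122 at or above 1. Large changes are sparse at the highest levels.

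The size of a change went with the gene's level, in normalised counts that are not divided by gene length. Among the 3181 genes of the lowest quartile by mean level (up to 449.5 normalised counts), 205 were at least 2-fold lower and 43 at least 2-fold higher. In the highest quartile (3180 genes above 4066 normalised counts) the numbers were 44 and 15. Calls of small rises were the reverse, since 10.2% of the lowest quartile and 33.2% of the highest were called higher, while calls of falls made up 21.7% and 18.5%. More genes sat at the floor of the deposited values in each AU-15330 library (1136 to 1185) than in each DMSO library (773 and 834). Power to call a small change also differs with level, and its part in this pattern was not tested.

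The 25 largest falls outside the best-known B cell genes were led by LOXL4, N4BP3, PLXND1, SYNPO2L and IL16. LOXL4, a lysyl oxidase that crosslinks collagen (chromosome 10, 98247690 to 98268250), was at 816.1 and 832.0 normalised counts in DMSO and at 26.5, 31.9 and 26.7 with AU-15330. The groups were far apart, and the change was -3.32 ± 0.0979 (limma adjusted p = 1.55e-09). N4BP3, a NEDD4-binding protein, went from 2296 and 2476 to 194, 242 and 241, a change of -3.10 ± 0.091 (limma adjusted p = 1.04e-09). PLXND1, a semaphorin receptor of the plexin family, had DMSO values of 1639 and 1266 and AU-15330 values of 88.9, 96.3 and 231. AU-15330 library 3 lay above the others but well under both DMSO libraries, and the change was -2.99 ± 0.294 (limma adjusted p = 3.26e-06). SYNPO2L, an actin-associated protein better known from muscle, fell from 523.0 and 509.7 to 11.8, 20.5 and 9.0. That is below 0.5 CPM in each treated library, one of 11 genes with such a fall from at least 2 CPM in each DMSO library. The others named by the rule were DEPP1, AMZ1, MFAP4, CD22, KLHL30 and the receptor genes HRH3 and VIPR2, of which HRH3, a histamine receptor, went from 316.9 and 308.1 to 19.1, 21.2 and 21.7. Only FAM220A crossed in the opposite direction.

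Several of these steep falls were in signalling genes of blood cells. MYO1F, a myosin of leukocytes, was at 918 and 851 in DMSO and at 88.2, 88.2 and 88.1 with AU-15330, so the treated libraries were nearly identical (-2.67 ± 0.145, limma adjusted p = 9.22e-08). GRAP, a GRB2-related adaptor, fell from 1086 and 1081 to 133, 68.3 and 151. LYL1, a basic helix-loop-helix factor of haematopoietic progenitors, fell from 748 and 823 to 93.9, 91.7 and 100. The groups did not overlap in these genes because the rule for the 25 required it, and they did not in 7956 of all tested genes (62.5%). P2RY10, a G protein-coupled receptor for lysophospholipids, went from 2187 and 1689 to 315, 385 and 303 (-2.33 ± 0.141, limma adjusted p = 2.08e-07). Other members of the 25 included the Rab regulator DENND2A (-2.87), the tensin gene TNS3 (-2.44), the G protein alpha subunit gene GNAZ (-2.42), the developmental factor SIM1 (-2.58), the hairless corepressor HR (-2.63) and TEX19 (-2.56), a germline gene. FOXO6 (-2.31), a forkhead factor, has 2 entries in the table.

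The 25 largest rises under the same rule were smaller and more mixed in function. CTTN, which encodes cortactin, an actin-branching cofactor (chromosome 11, 70398404 to 70436584), rose from 190 and 189 to 1011, 1133 and 1057 normalised counts. Both groups were tight, and the change was 2.17 ± 0.127 (limma adjusted p = 1.16e-06). EGR2, a zinc finger factor induced by receptor signalling, rose from 77.5 and 99.1 to 550, 582 and 590 (2.10 ± 0.179, limma adjusted p = 0.000847). CCDC121, a coiled-coil gene, went from 82.1 and 84.3 to 476, 469 and 474, and ZDHHC23, a palmitoyltransferase, from 603 and 558 to 1950, 1964 and 1929. These 4 genes had AU-15330 libraries within a narrow band. That they lay above both DMSO libraries was required by the rule. CTTN and B3GNTL1 (1.54) have 2 entries each.

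A pair of the largest rises had uneven libraries. PDCD1, which encodes the checkpoint receptor PD-1, was at 85.4 and 565 in DMSO and at 1329, 1974 and 1335 with AU-15330 (2.39 ± 0.673, limma adjusted p = 0.00989). Without DMSO library 1 the change was 1.34 and the adjusted p 0.125, and PDCD1 has 2 entries. FAM220A, an inhibitor of STAT3 signalling, was at 9.57 and 0.837 in DMSO and at 199, 214 and 559 with AU-15330 (2.44 ± 0.71, limma adjusted p = 0.023). Its AU-15330 libraries were uneven, and the change stayed about as large while the call was lost without DMSO library 1 (2.54, adjusted p = 0.073), DMSO library 2 (2.34, adjusted p = 0.112) or AU-15330 library 3 (2.04, adjusted p = 0.0752). The steadier rises included SPSB1, a substrate adaptor of a ubiquitin ligase, from 256 and 256 to 813, 923 and 887, and IER5L, an immediate early gene relative, from 1239 and 1731 to 4551, 5032 and 4345. SIK1B, a salt-inducible kinase gene, rose from 850 and 1042 to 3054, 3211 and 2821, and CBS and CBSL, which encode cystathionine beta-synthase, rose by 1.5 and 1.38. These 3 genes have near-identical copies among which counts can be split, so their single values are uncertain.

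**Figure D2:**
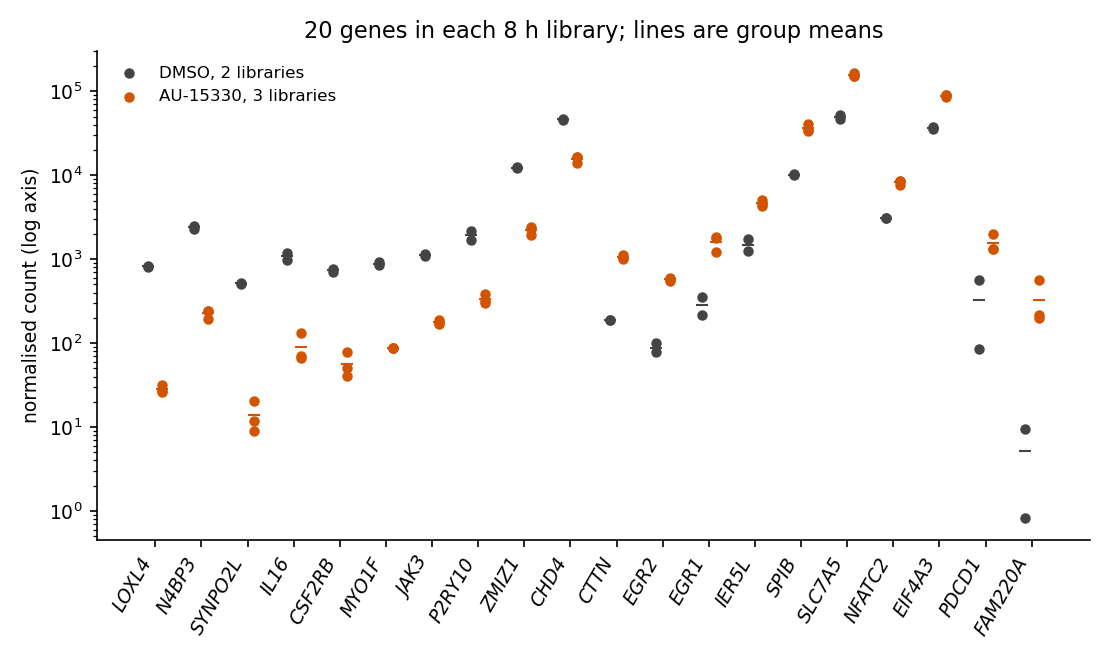
Normalised counts (log axis) of 20 genes in each of the 5 libraries at 8 h, DMSO in dark grey and AU-15330 in orange, 1 point per library and a short line at each group's mean. The 3 AU-15330 points lie together for most genes, below both DMSO points for the falls and above them for the rises, while PDCD1 has DMSO points far apart.

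Among highly expressed genes, with at least 100 CPM in the higher group, the falls outside the B cell receptor genes included KIF21B, EHD1 and PRDM15. KIF21B, a kinesin, went from 7964 and 7082 to 1811, 1911 and 1815 normalised counts (-1.99 ± 0.0594, limma adjusted p = 3.17e-09). EHD1, an endosomal recycling ATPase, went from 6393 and 6108 to 1933, 1970 and 1902 (-1.66 ± 0.0773, limma adjusted p = 5.42e-08). PRDM15, a zinc finger factor, fell from 6500 and 6245 to 2276, 1986 and 2045. In each of these genes the treated libraries differed among themselves far less than they differed from DMSO. EMP3, a membrane protein, rose by 1.37 in the same class.

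Cytokine and cytokine receptor genes fell more often than they rose. Of 10 tested cytokine and chemokine genes, 5 fell, 1 rose and 4 were not called, where 44.2% of all genes were called. IL10, an anti-inflammatory cytokine that B cells can secrete, was at 742 and 702 in DMSO and at 78.7, 103 and 107 with AU-15330 (-2.33 ± 0.15, limma adjusted p = 1.06e-06). IL16, a chemoattractant ligand of CD4, went from 1191 and 989 to 131, 67.3 and 71.2 (-2.96 ± 0.156, limma adjusted p = 4.57e-08), and IL23A, a subunit of interleukin 23, from 656 and 651 to 95.1, 101 and 85.9. The groups did not overlap in any of these 3 genes. VEGFB fell by 0.85 on the log2 scale and VEGFA rose by 0.53.

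Of 38 genes for cytokine receptors, JAK kinases, STAT factors and SOCS feedback inhibitors, 16 fell and 10 rose. In this list 68.4% were called, against 44.2% of all genes, and the median was -0.10, against 0.02 over all genes. CSF2RB, the shared beta chain of the interleukin 3, interleukin 5 and GM-CSF receptors, went from 771 and 707 to 77.6, 50.6 and 40.3 (-2.79 ± 0.132, limma adjusted p = 2.25e-08). JAK3, the kinase that binds the common gamma chain, went from 1165 and 1092 to 172, 191 and 168 (-2.33 ± 0.0935, limma adjusted p = 1.38e-08). IL2RG, which encodes that chain, changed by -1.28 ± 0.0601, and STAT6, the factor downstream of the interleukin 4 receptor, by -1.31 ± 0.0455. The receptor chain, its kinase and this STAT factor were thus all lower, whereas SOCS3, a SOCS feedback inhibitor gene in the same list, rose. Of 32 Toll-like receptor and innate sensing genes, 18 fell and 2 rose (1 without DMSO library 1), with 62.5% called and a median of -0.35. The falls included LY86 (-1.10), which partners the receptor RP105, the inflammasome genes NLRP1 (-1.77) and PYCARD (-1.10), the class I transactivator NLRC5 (-1.42) and the RNA sensor IFIH1 (-0.67).

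Among genes of receptor-proximal signalling beyond the B cell receptor itself, falls outnumbered rises. Of 42 tyrosine kinases, phosphatases and adaptors, 19 fell, 4 rose and 19 were not called (54.8% called, against 44.2% of all genes, median -0.21). DOK3, an inhibitory adaptor, went from a mean of 4464 to 962 normalised counts (-2.15 ± 0.0565, limma adjusted p = 1.04e-09), and SIT1, a transmembrane adaptor of lymphocytes, from 3630 to 796 (-2.11 ± 0.0978, limma adjusted p = 1.7e-08). FGR, a SRC family kinase of myeloid and B cells, changed by -2.0 and the phosphatase gene PTPN7 by -1.14. Of 33 phosphoinositide kinases and phosphatases, 15 fell and 6 rose (63.6% called). ITPKB, which phosphorylates inositol trisphosphate, changed by -1.11 and the catalytic subunit genes PIK3CD by -0.58 and PIK3CG by -0.59. Of 31 RAS and MAP kinase regulators, 11 fell (7 without DMSO library 2) and 6 rose, with 54.8% called. The diacylglycerol-activated exchange factors RASGRP3 (-1.56) and RASGRP1 (-1.34) fell, and SIPA1L3, a RAP GTPase activating protein, rose (1.27).

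Cytoskeletal and adhesion genes of leukocytes also fell more often than they rose. Of 39 actin genes, 18 fell and 4 rose (56.4% called, against 44.2% of all genes, median -0.20). RAC2, the RAC protein of blood cells, went from 1827 and 1708 to 370, 480 and 620 normalised counts (-1.76 ± 0.156, limma adjusted p = 3.33e-06). CORO1A, an actin-binding protein of lymphocytes, went from a mean of 15890 to 6433 (-1.30 ± 0.045, limma adjusted p = 4.78e-09), and WAS, which activates actin branching downstream of CDC42, changed by -0.88. ABI3, a subunit of the WAVE complex in blood cells, changed by -2.31. The formin FMNL3 rose by 1.41 and CTTN, given above and not in that list, by 2.17, so these 2 actin regulators were higher. Of 28 integrins, adhesion molecules and plexins, 16 fell and 2 rose (1 without DMSO library 2), with 64.3% called and a median of -0.54. Besides PLXND1, the receptors PLXNC1 (-1.94) and PLXNB2 (-1.39) and the integrin chain ITGA4 (-0.69) were lower. Of 16 immune GTPases, 9 fell and 2 rose (68.8% called), with GIMAP2 at -1.63 and ARL11 at -1.42. G protein signalling genes fell in 16 of 35 and rose in 4 (57.1% called). Their falls numbered 9 without DMSO library 1 and 10 without DMSO library 2. RGS19, a GTPase accelerator, changed by -1.39 and GNB1, a beta subunit, rose by 0.43.

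**Figure D3:**
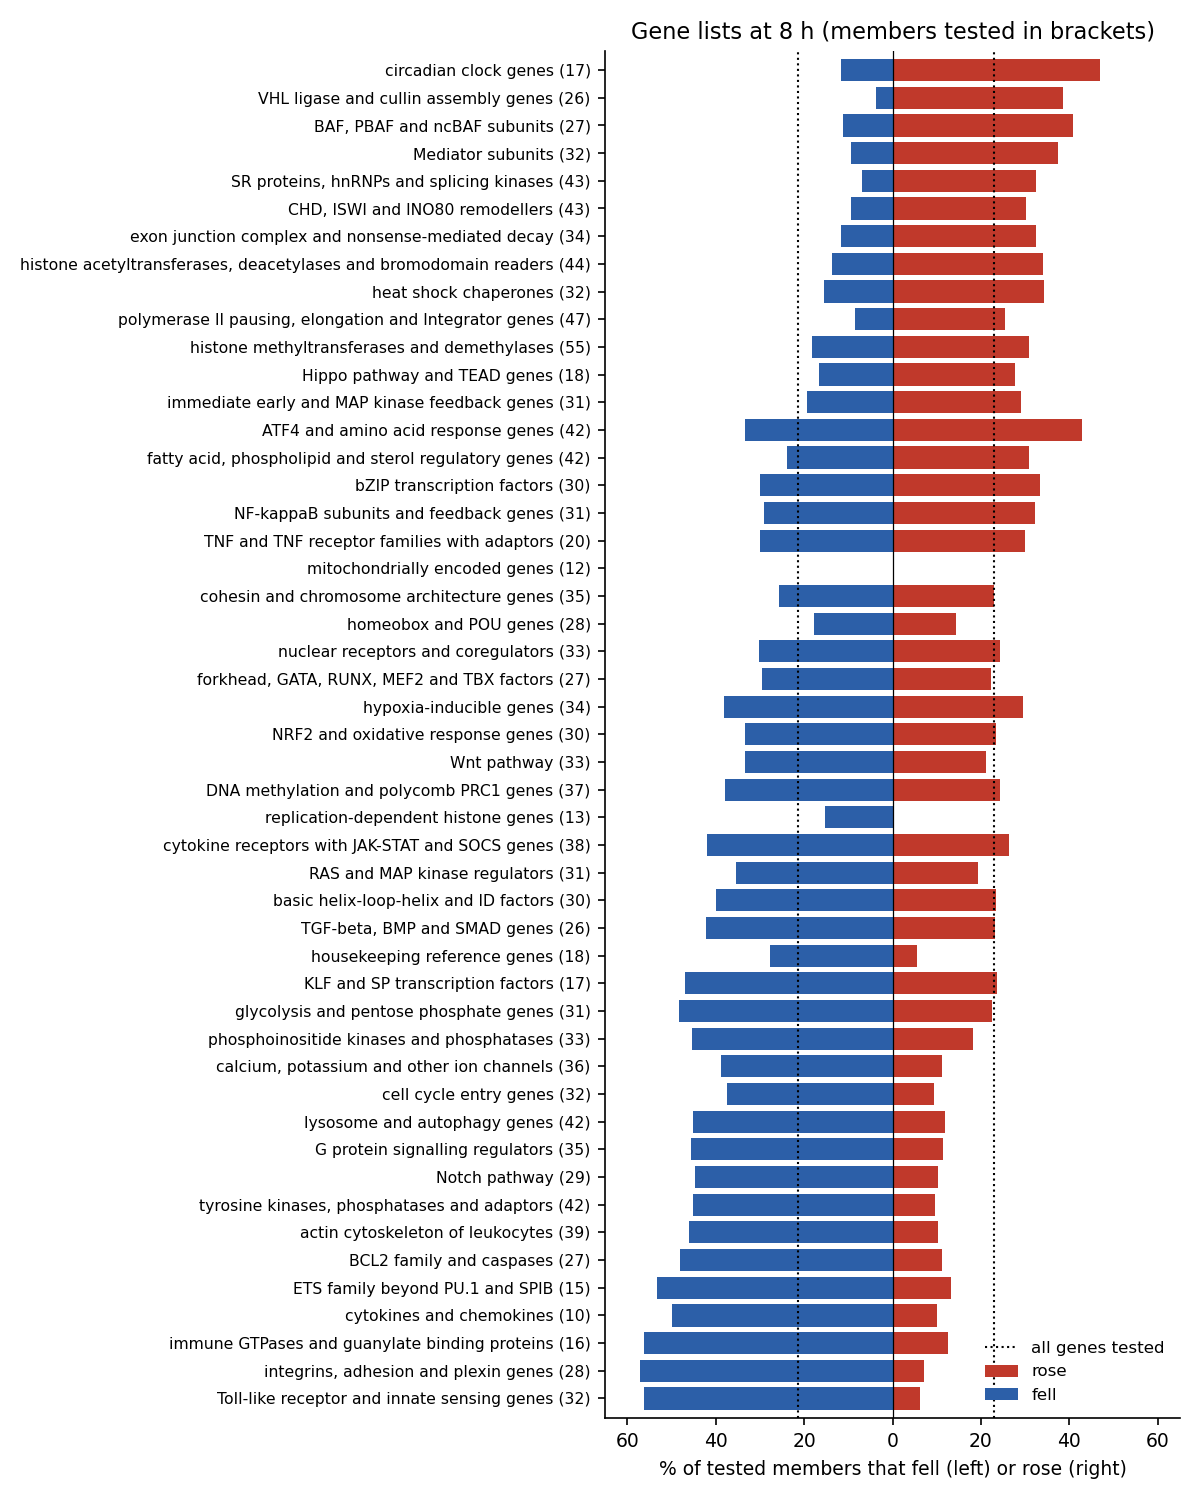
For the gene lists shown, the percentage of its tested members that fell (blue, left) and rose (red, right) after 8 h, with the number tested in brackets; the dotted lines mark 21.4% and 22.9% over all genes. Integrin, innate sensing and immune GTPase lists extend past 50% to the left, and VHL ligase, Mediator and circadian lists extend further right than left.

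The TNF receptor and NF-kappaB genes moved in both directions. Of 31 NF-kappaB genes 10 rose and 9 fell (61.3% called, against 44.2% of all genes). Of 20 TNF family genes 6 rose, 6 fell and 8 were not called. NFKB2 (0.55), REL (0.44) and RELB (0.33), which encode subunits of the factor, rose, while the inhibitor gene NFKBIA (-0.42) and the kinase gene IKBKE (-1.19) fell. RIPK1, the kinase at the TNF receptor, rose by 0.87 and the receptors TNFRSF1A (-1.37), TNFRSF10B (-0.95) and CD40 (-1.13) fell. Of the 29 Notch pathway genes, 13 fell and 3 rose (5 without AU-15330 library 3), with 55.2% called. NOTCH1, which is mutated in a share of mantle cell lymphomas, went from a mean of 6001 to 3136 normalised counts (-0.93 ± 0.0531, limma adjusted p = 1.17e-07). The fringe glycosyltransferases LFNG (-1.34) and MFNG (-0.66) and the inhibitor gene NUMBL (-1.53) also fell, and DTX4, an E3 ligase of the pathway, rose (1.5). In the TGF-beta list 11 of 26 fell and 6 rose (65.4% called). Among the falls were the receptor attenuator LDLRAD4 (-1.63), SMAD3 (-0.62) and the inhibitory SMAD7 (-1.17). The Wnt list had 11 falls and 7 rises among 33 (54.5% called). TCF7 was at -1.98, the receptor FZD2 at -1.15 and the ligand WNT16 at 0.84.

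Lists of transcription factor genes outside the B cell set held both rises and falls. Of 15 ETS genes other than those for PU.1 and SPIB, 8 fell and 2 rose (66.7% called, against 44.2% of all genes). The falls were led by FLI1, a haematopoietic ETS factor, from a mean of 2131 to 730 normalised counts (-1.47 ± 0.0796, limma adjusted p = 1.83e-07). ELK3 (-1.04), ETS2 (-0.82), ELF4 (-0.73) and ETS1 (-0.46) fell with it. NFATC2, a calcineurin-dependent factor, rose from 3128 and 3055 to 7718, 8661 and 8571 (1.41 ± 0.0752, limma adjusted p = 1.29e-07), and its relative NFATC3 rose by 0.56. Of 17 genes listed by the names KLF or SP, 8 fell and 4 rose (2 without DMSO library 1), with 70.6% called. The falls include the nuclear body genes SP140 (-1.51) and SP110 (-0.90), which are not members of the KLF and SP factor family. KLF2, a quiescence factor, was higher (1.06). RXRA, the shared partner of many nuclear receptors, fell by 1.42 on the log2 scale. In its list of 33, 10 fell and 8 rose (54.5% called). Of 28 homeobox and POU genes, 5 fell and 4 rose (32.1% called, against 44.2% of all genes), and both counts were lower when some single libraries were left out (3 falls without DMSO library 2, and 2 rises without DMSO library 1, DMSO library 2 or AU-15330 library 3).

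Immediate early genes did not move as a block. Of 31 members 9 rose (5 without DMSO library 1, AU-15330 library 1 or AU-15330 library 2) and 6 fell. The share called was 48.4%, near the 44.2% of all genes, and the median was 0.02. EGR1, a zinc finger factor that responds to serum and receptor signals, was at 359 and 216 in DMSO and at 1779, 1854 and 1230 with AU-15330 (2.28 ± 0.29, limma adjusted p = 0.00166). SRF, the factor that binds CArG boxes, rose by 0.56 ± 0.0443. ATF3 (-1.56 ± 0.218) and KLF10 (-0.79 ± 0.0927), also rapid response genes, fell, with limma adjusted p of 9.28e-05 and 4.83e-05.

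In the general transcription and RNA machinery lists more genes rose than fell, but the shares called were near or below the 44.2% of all genes. Of 32 Mediator subunits 12 rose (5 without DMSO library 2) and 3 fell (46.9% called, median 0.14), with MED26 at 0.66 ± 0.0716. Of 47 polymerase II pausing, elongation and Integrator genes 12 rose (7 without DMSO library 2) and 4 fell (34.0% called). The PAF complex genes CDC73 (0.46) and CTR9 (0.43) and the elongation inhibitor HEXIM1 (0.43) rose, whereas ELL3, an elongation factor with a lymphoid pattern, fell by 1.51 on the log2 scale. Of 43 splicing regulators 14 rose and 3 fell (39.5% called), and the rises numbered 8 without DMSO library 1 or AU-15330 library 1 and 9 without AU-15330 library 3, and the falls 5 without DMSO library 2. SRSF1 changed by 0.19 and SRSF7 by 0.17, so the rises were slight. Of 34 exon junction and nonsense-mediated decay genes 11 rose and 4 fell (2 without DMSO library 2), a share called of 44.1%, and SMG9 changed by 0.69. Genes of the VHL ligase and cullin assembly, the machinery the degrader uses, were higher in 10 of 26 and lower in 1 (42.3% called), EGLN3 (-0.82 ± 0.0805, limma adjusted p = 1.25e-05). EGLN1 (0.55) is the main oxygen-sensing prolyl hydroxylase and NAE1 (0.38) and UBE2M (0.29) activate cullins with NEDD8.

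Lists of other chromatin regulators were called to unequal extents. In the list of CHD, ISWI and INO80 remodellers 13 of 43 rose and 4 fell (2 without AU-15330 library 1, and 8 after quantile normalisation), so 39.5% were called, against 44.2% of all genes. CHD4, a CHD remodeller that was lower (-1.57), is not in that list. The INO80 subunit genes ACTR5 (0.67) and INO80E (0.44) were higher and GATAD2B (-0.63, 2 entries), a subunit of the NuRD complex, was lower. Among DNA methylation and PRC1 genes 14 of 37 fell and 9 rose (62.2% called), with the falls at 7 without DMSO library 1 or DMSO library 2 and at 9 without AU-15330 library 1 or AU-15330 library 3. CBX2, a chromodomain reader, went from a mean of 11950 to 5700 normalised counts (-1.06 ± 0.0366, limma adjusted p = 4.78e-09), and UHRF1, which recruits the maintenance methyltransferase, from 21760 to 13710 (-0.67 ± 0.0432, limma adjusted p = 4.39e-07). RNF2, the E3 ligase of PRC1, rose by 0.53. The class IIa deacetylase genes HDAC5 (-0.58) and HDAC7 (-0.66) fell and SETD1B, an H3K4 methyltransferase gene, rose (0.59).

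Metabolic genes were called often. Of 31 glycolysis and pentose phosphate genes 15 fell and 7 rose (71.0% called, against 44.2% of all genes). PGD, an enzyme of the oxidative pentose phosphate branch, changed by -0.76 ± 0.0337, PFKM, a phosphofructokinase, by -1.24 ± 0.0747 and the lactate transporter SLC16A3 by -1.22 ± 0.115, while hexokinase 2 (HK2) rose by 0.51. Of 42 ATF4 and amino acid response genes 18 rose and 14 fell (76.2% called). The list split, since EPRS1 (0.49) and the transporter heavy chain SLC3A2 (0.53) rose and another aminoacyl-tRNA synthetase, WARS1 (-0.97), and the serine pathway gene SHMT2 (-0.76) fell. Among the 42 genes of fatty acid, phospholipid and sterol regulation 13 rose and 10 fell (54.8% called). ABCA1, a cholesterol exporter induced by LXR with RXR, went from 2372 and 1945 to 497, 460 and 468 (-2.05 ± 0.0924, limma adjusted p = 1.4e-07), and ABCG1, a second exporter, from 1230 and 1152 to 468, 406 and 469. Of 42 lysosome and autophagy genes 19 fell and 5 rose (2 without DMSO library 1 and 3 without DMSO library 2), with 57.1% called. CTSS, the protease of antigen processing, and LAPTM5 were both at -1.14.

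Of 17 circadian clock genes 8 rose (5 without DMSO library 1) and 2 fell (1 without any single library). In this list 58.8% were called, against 44.2% of all genes, and the median was 0.15. CIART, a repressor of the CLOCK and BMAL1 pair, rose from 203 and 172 to 540, 588 and 646 normalised counts (1.39 ± 0.126, limma adjusted p = 8.25e-06). PER2 (0.71), PER3 (1.03), TEF (0.41) and NR1D2 (0.66), outputs or feedback arms of the clock, were higher too. The PER3 level was low, at 6.99 and 1.89 in DMSO and 55.4, 88.9 and 73.1 with AU-15330. Among cell death genes 13 of 27 fell (8 without DMSO library 2) and 3 rose (none without DMSO library 1), with 59.3% called. BMF, a BH3-only activator of apoptosis, went from 2039 and 2188 to 542, 674 and 524 (-1.77 ± 0.102, limma adjusted p = 1.39e-07), and the caspase genes CASP1 (-1.32), CASP10 (-0.68) and CASP6 (-0.51) fell. Among 32 cell cycle entry genes 12 fell and 3 rose (5 after quantile normalisation), with 46.9% called, near the share of all genes. MYBL2 changed by -0.36 and the inhibitor gene CDKN1B by -0.51. Of 12 mitochondrially encoded genes none passed the test and their median was -0.24, but 10 fell when AU-15330 library 2 was left out. That library held 1.059% of its counts on these genes, against 0.705% and 0.777% in the other AU-15330 libraries and 0.935% and 1.065% in DMSO.

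Some falls lay side by side on the chromosomes. In the order of 11431 tested genes, 29 runs of 3 or more neighbours all passed the test in 1 direction at 1.5-fold or more, 25 lower and 4 higher, where 1111 genes were lower and 464 higher at that size. Genes were placed by GENCODE release 29 on GRCh38. The longest run held 7 genes on chromosome 9, from 133471095 to 134034666, with SLC2A6 (-1.93), ADAMTSL2 (-0.77), FAM163B (-0.95), DBH (-1.15), SARDH (-0.65), VAV2 (-0.62) and BRD3OS (-0.68). A run on chromosome 20 from 64047582 to 64242253 held SOX18 (-1.43), TCEA2 (-0.85), RGS19, OPRL1 (-1.50) and MYT1 (-0.94). On chromosome 22, from 37051736 to 37486401, KCTD17 (-0.61), SSTR3 (-1.15), RAC2, ELFN2 (-1.51) and MFNG fell together. The longest run of rises, on chromosome 12 from 6870935 to 6914243, held SPSB2 (0.60), LRRC23 (0.74) and the pseudogenes RPL13P5 (0.80) and DSTNP2 (0.76). SPSB2 and LRRC23 overlap in the annotation and the counting's use of strand is not given, so their values may share reads.

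Some shorter runs held gene families or known neighbours, and they were picked with their values in view. The fatty acid desaturase cluster on chromosome 11 (61792980 to 61892051) had all 3 of its genes lower, FADS1 by 1.38, FADS2 by 1.24 and FADS3 by 2.14 on the log2 scale. FADS3 was at 2238 and 2339 in DMSO and at 432, 574 and 423 with AU-15330. FADS1 and FADS2 overlap in the annotation, so their values may share reads. On chromosome 1, IL10 stood with IL19 (-1.48), a cytokine of the same family, and FCMR (-1.35), the IgM Fc receptor, from 206767602 to 206923247. GNAZ, RAB36 (-1.09) and BCR (-1.20) were neighbours on chromosome 22.

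Promoters of the called genes were compared by their sequence in RefSeq. A promoter of 250 bases before the start was matched for 9147 of 11033 protein-coding tested genes (82.9%), with 84.1% of those higher, 81.4% of those lower and 83.0% of those not called. Of the genes at least 2-fold higher or lower, 77.5% and 75.4% had one, too few for the comparison, so it is void for them and not given. The ratio of observed to expected CpG had a median of 0.79 in genes that fell, 0.858 in genes that rose and 0.84 in genes not called. A ratio under 0.4, taken here as CpG-poor, was found in 14.8% of the genes that fell, 4.94% of those that rose and 8.29% of those not called. CpG-poor promoters are known to be common among tissue-restricted genes. These shares are descriptive, and expression level was not held equal between the groups.

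**Figure D4:**
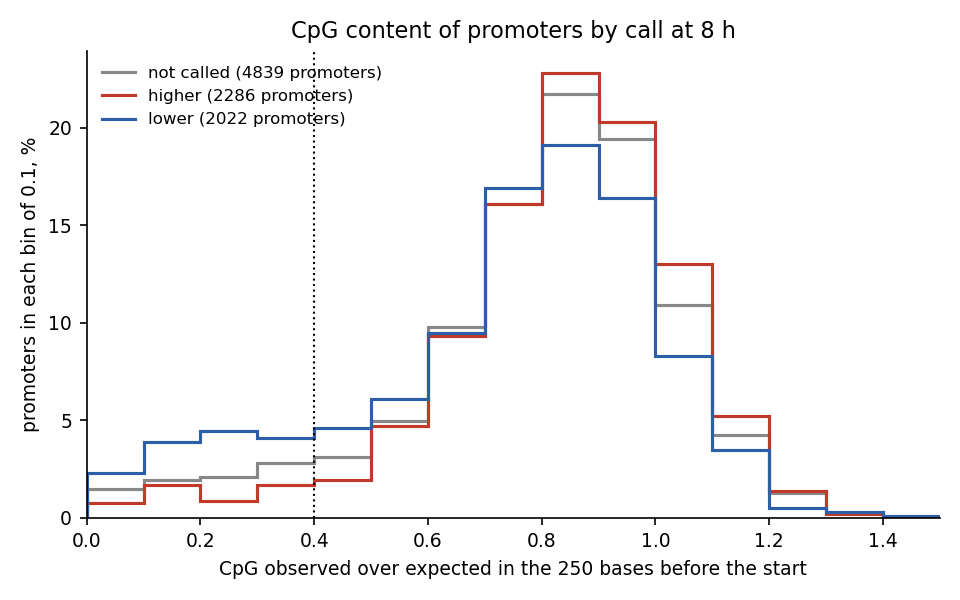
Percentage of promoters (vertical axis) in each bin of the ratio of observed to expected CpG (horizontal axis) for genes called lower, called higher or not called at 8 h. The genes that fell have more promoters left of the dotted line at 0.4 (14.8%) than the genes that rose (4.94%).

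Short motifs were counted in the same windows on both strands. The PU.1-type ETS box GAGGAAGT was in 2.87% of promoters of genes that fell, 1.84% of those that rose, 1.84% of those not called and 2.13% of all 27305 RefSeq promoters. Another ETS box, CCGGAAGT, which shares the core GGAAGT with the first and is typical of CpG island promoters, was in 5.34%, 8.57%, 9.07% and 3.64% respectively. The E-box CACGTG was in 8.9%, 9.67%, 9.18% and 6.49%, and the CArG box in 1.29%, 0.656%, 0.992% and 1.14%. Other motifs were also counted, and most were more frequent in genes that fell than in those that rose. They included the octamer (1.68% against 0.962%), the interferon-stimulated element (2.62% against 1.88%) and the AP-1 site (3.96% against 3.02%). Among these others, only the cAMP response element (2.62% against 3.06%) and the sterol regulatory element (2.37% against 2.76%) went the other way. An excess in genes that fell was thus not particular to the PU.1-type box. A match gives letters only and is no evidence of binding, and most of these shares were within a few percentage points of one another. The windows below are shown because they hold such a match in genes described above, and they were chosen after the values were seen. Capitals mark the PU.1-type box in P2RY10 (where it is read on the opposite strand) and EHD1, the E-boxes in CIART and the CArG boxes in EGR1. Each is the 250 bases before the RefSeq start on GRCh38.p14, 5′ to 3′ on the gene's strand. Only 1 RefSeq start was used per gene. The EHD1 window lies inside the gene as GENCODE places it (64851642 to 64888296), so it precedes an internal start and not the outermost one.
P2RY10, chrX:78945141-78945390, plus strand: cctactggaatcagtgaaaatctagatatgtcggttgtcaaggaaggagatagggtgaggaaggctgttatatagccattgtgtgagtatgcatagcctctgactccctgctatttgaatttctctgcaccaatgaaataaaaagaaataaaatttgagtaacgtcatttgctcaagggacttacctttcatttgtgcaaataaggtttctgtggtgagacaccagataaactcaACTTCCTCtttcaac
EHD1, chr11:64879694-64879943, minus strand: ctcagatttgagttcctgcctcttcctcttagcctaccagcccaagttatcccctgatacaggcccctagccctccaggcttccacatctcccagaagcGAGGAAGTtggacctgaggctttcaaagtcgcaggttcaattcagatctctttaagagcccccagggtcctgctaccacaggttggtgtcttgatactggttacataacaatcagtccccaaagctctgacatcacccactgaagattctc
CIART, chr1:150282304-150282553, plus strand: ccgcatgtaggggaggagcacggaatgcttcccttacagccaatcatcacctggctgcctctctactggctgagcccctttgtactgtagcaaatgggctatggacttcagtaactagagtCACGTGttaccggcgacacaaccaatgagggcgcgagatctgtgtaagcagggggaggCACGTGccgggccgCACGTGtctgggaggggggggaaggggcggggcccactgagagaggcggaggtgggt
EGR1, chr5:138465229-138465478, plus strand: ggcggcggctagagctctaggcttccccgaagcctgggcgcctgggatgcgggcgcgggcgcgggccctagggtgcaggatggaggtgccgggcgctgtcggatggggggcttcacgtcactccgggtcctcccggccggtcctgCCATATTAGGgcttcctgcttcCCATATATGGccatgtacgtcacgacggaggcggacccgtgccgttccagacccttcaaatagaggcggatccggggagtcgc
The P2RY10 box begins 15 bases before the start and the EHD1 box 151 bases before it, in a pair of genes that fell. CIART has 3 E-boxes, 129, 71 and 57 bases before its start, and EGR1 has 2 CArG boxes, 105 and 83 bases before its start, in a pair of genes that rose.

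The 24 h libraries show which early changes were still seen later. Of the 481 genes at least 2-fold lower at 8 h, 459 were called lower at 24 h (95.4%), 20 were not called and 2 were higher. Of the 122 genes at least 2-fold higher at 8 h, 104 were higher at 24 h (85.2%), 14 were not called (11.5%) and 4 were lower. Over all sizes, 61.3% of the 2907 rises and 74.9% of the 2717 falls were called in the same direction at 24 h, where 24.7% and 26.2% of all genes were higher and lower. The difference between the effects at the 2 times was tested in the same fit, and 2358 of all genes (18.5%) passed. That test used the deposited values, where a doubling is worth 0.163 from 100 normalised counts and 0.852 from 10000. An equal fold from unequal DMSO levels can therefore differ on that scale, and the part of DMSO level in these calls was not tested. Among the large falls 186 passed, of which 90 were further from DMSO at 8 h, 91 further at 24 h and 5 of opposite sign. Among the large rises 49 passed, of which 28 were larger at 8 h, 14 larger at 24 h and 7 of opposite sign. Time and the labelled batch cannot be told apart in this comparison, although each time has its own DMSO libraries.

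EGR1, EGR2, AHNAK, KLF2, TLN2 and SIPA1L3 were the 6 rises whose 8 h effect most exceeded the 24 h effect among genes past the test of that difference. The EGR1 effect was 2.28 at 8 h and -1.06 at 24 h, a difference of 3.35 (limma adjusted p = 0.00108), and that of EGR2 was 2.10 and 0.05. Their control levels differed widely between the times, with EGR1 in DMSO at a mean of 288 normalised counts at 8 h and 5788 at 24 h, and EGR2 at 88.3 and 2738. The AU-15330 means at 24 h were 2722 and 2870, so both genes were higher in the 24 h libraries of either treatment than under AU-15330 at 8 h, and the part of the control level in these differences was not tested. KLF2 was at 1771 and 1953 in DMSO and at 3428, 3813 and 4666 with AU-15330 at 8 h, with effects of 1.06 and -0.69. AHNAK, a large scaffold protein, had effects of 1.15 and -0.61, the RAP regulator SIPA1L3 of 1.27 and -0.37 and the adhesion gene TLN2 of 1.13 and -0.53. Without DMSO library 2 the TLN2 effect at 8 h was 0.88 (adjusted p = 0.0597). NFATC2 was nearer to DMSO at 24 h (0.46) than at 8 h, and PDCD1, with its uneven controls, was at -0.12, where the difference of 2.51 did not pass (limma adjusted p = 0.0755).

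Under the same limit, the 6 falls with the largest excess at 8 h were TP53INP1, ABCG1, MELTF, BMF, PDPN and VGF. TP53INP1, a stress-induced gene, went from 926 and 1158 to 240, 250 and 305 at 8 h, with effects of -1.76 and 0.11. Its DMSO mean was similar at both times, 1042 and 1192. The ABCG1 effects were -1.30 and 0.30, those of BMF -1.77 and -0.29, and those of MELTF, a transferrin family member, -1.04 and 0.54. ABCA1, the companion of ABCG1 in sterol export, was still lower at 24 h (limma adjusted p = 1.51e-06). VGF, a secreted neuropeptide precursor, had effects of -1.20 and 0.14, and PDPN, a mucin-type glycoprotein, of -0.94 and 0.44. Of the steep falls, the difference from DMSO was larger at 24 h for IL10 (-3.45), IL16 (-3.89) and CSF2RB (-3.67), and in all 3 the DMSO mean was higher at 24 h as well. For IL10 it was 722 normalised counts at 8 h and 2752 at 24 h, and the AU-15330 mean was 96.3 and 199.5. For IL16 the DMSO means were 1090 and 1735 and the AU-15330 means 89.8 and 61.1, and for CSF2RB 739 and 1154 against 56.2 and 35.5. LOXL4 (-2.66) and TEX19 (-1.48) were closer to DMSO at 24 h, and N4BP3 was at -3.08, close to its value at 8 h.

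**Figure D5:**
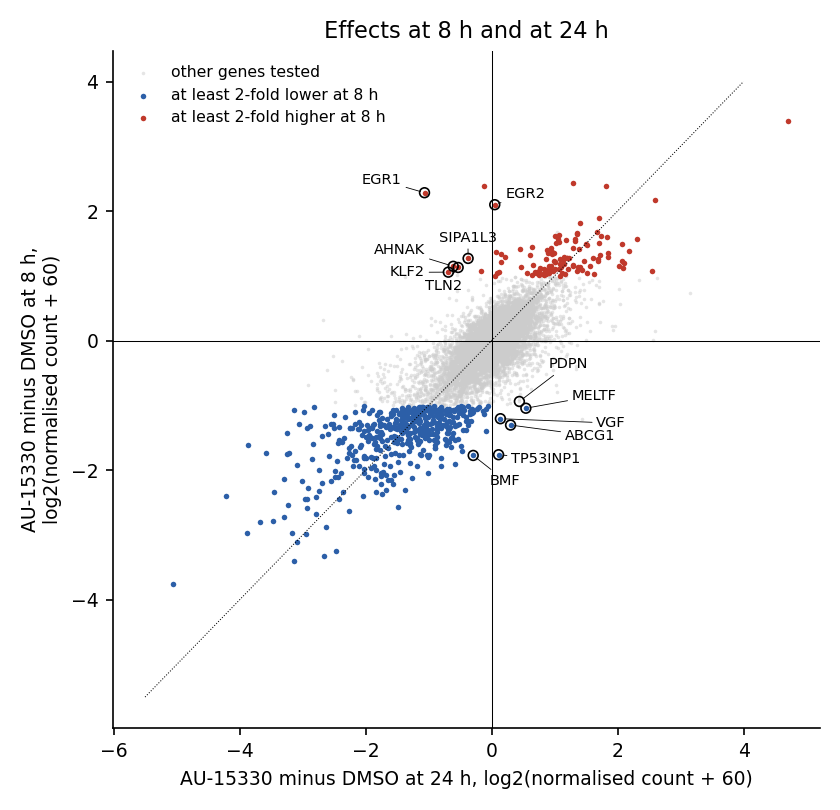
Effect of AU-15330 at 8 h (vertical axis) against the effect at 24 h (horizontal axis), both as differences in log2(normalised count + 60). Each point is a tested gene with a symbol, 1 entry per symbol, with genes at least 2-fold lower at 8 h in blue and at least 2-fold higher in red. Most coloured points lie in the lower left and upper right, and the circled genes, such as EGR1 with 2.28 at 8 h and -1.06 at 24 h, lie near or across the vertical line at 0.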

How the data were processed

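Bulk RNA-seq of Z138 cells was read from 1 deposited table of log2 values. The authors deposited variance-stabilised log2 expression values under a name that says log CPM; per the submitters' processing notes the tools were FastQC 0.11.9, Trimmomatic 0.40, kallisto 0.46.1, R 4.3.2 and DESeq2 1.24.0, with the GRCh38.p13 build. The notes give no role or order for these tools. Which library kit in the labels served which sample was not stated, nor was the use of strand in counting. The values follow one variance-stabilising curve, which was inverted to normalised counts (59.45 equal 1 CPM). Low values came out as whole counts in only 53.5 to 56.04% of cases, so no count test was run.

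Genes with at least 1 CPM in 3 libraries were tested with limma 3.58.1 in R 4.3.3 on the deposited values, using the 11 distinct libraries, 1 mean per group, a mean-dependent prior, 7 residual degrees of freedom and Benjamini-Hochberg adjustment (threshold 0.05). Fold changes and standard errors came from the same model on log2(normalised count + 60). Of 20318 entries, 12721 were tested; 1600 entries have no symbol and 2318 share a symbol, which is stated where it matters. The script was tested on simulated data. Levels of different genes are not compared by length.

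Named genes were the 25 largest falls and rises outside the best-known genes (at least 5 CPM, groups not overlapping), the 8 largest each way above 100 CPM, up to 8 switched off or on (under 0.5 CPM against 2 CPM or more), the 5 members of each list with the smallest p (every called member where 5 or fewer passed), the 6 each way with the largest excess of the 8 h over the 24 h effect among those past the test of that difference, the 6 longest runs of neighbours, and the targets. Some genes and 1 list are not reported here. The members and lists were chosen with earlier results of these data known. Alternatives were other scalings, pseudocounts, filters, the 8 h libraries alone, a replicate block and leaving out each library.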

Additional observations from a re-analysis of the deposited data

Results flagged for a closer look

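The effect of AU-15330 differed between 8 h and 24 h in 2358 genes by a test of the difference itself (limma contrast in the shared fit, threshold 0.05). Time and labelled batch cannot be told apart in it. It was run on the deposited values, where the worth of a given fold depends on the gene's level. A change of DMSO level between the times can thus enter the calls, and its part was not tested. Of the genes named by rule, 45 were among them, and their values below are the 8 h minus the 24 h effect in log2(normalised count + 60).

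The effect was of opposite sign at the 2 times in 10 of these genes. Rises at 8 h against values below 0 at 24 h gave differences of 3.35 for EGR1, 1.76 for AHNAK, 1.74 for KLF2, 1.66 for TLN2 and 1.64 for SIPA1L3. Falls at 8 h against values above 0 at 24 h gave -1.87 for TP53INP1, -1.60 for ABCG1, -1.59 for MELTF, -1.38 for PDPN and -1.35 for VGF. The 24 h effect itself did not pass the test for TP53INP1 (0.11, limma adjusted p = 0.362), VGF (0.14, limma adjusted p = 0.253) and TLN2 (-0.53, limma adjusted p = 0.0737).

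In 21 genes the sign was shared and the 8 h effect was the larger. For EGR2 the 24 h effect itself did not pass the test (0.05, limma adjusted p = 0.779). Among the rises the difference was 2.05 for EGR2, 1.08 for EIF4A3, 0.95 for NFATC2, 0.81 for GADD45G, 0.55 for SIK1B, 0.51 for AMN1, 0.45 for GADD45B, 0.41 for SPIB and EMP3, 0.38 for ZNF25 and 0.30 for SLC7A5 and ZDHHC23. Among the falls it was -1.48 for BMF, -1.08 for TEX19, -0.94 for FOXO6, -0.90 for CHD4, -0.66 for LOXL4, -0.64 for ABI3, -0.60 for KLHL30, -0.46 for HRH3 and -0.28 for PRDM15.

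In 14 genes the sign was shared and the 24 h effect was the larger. The rises among them were CBSL (-0.81), SPSB1 (-0.75) and CTTN (-0.42). The falls were IL10 (1.13), IL16 (0.93), CD22 (0.89), CSF2RB (0.88), CD38 (0.85), PDGFA (0.85), CD79B (0.60), LYL1 (0.52), ZMIZ1 (0.48), SMARCA2 (0.39) and GNAZ (0.37).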

How the results depend on the processing

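With 2 DMSO libraries at 8 h, the counts of calls rest on few controls. The count at 8 h was 5624, between 5103 and 5655 under other scalings, pseudocounts, filters or with the 8 h libraries alone, and between 4397 and 5176 when 1 library was left out. On log2(CPM + 5), which compresses low genes, 47 genes were at least 2-fold higher and 223 at least 2-fold lower, against 122 and 481. Replicate numbers do not mark shared samples in the labels, and same-numbered libraries at 8 h did not deviate together (correlations -0.025 and -0.0349). With the replicate block 4763 genes were called at 8 h and 1359 for the difference between the times, against 2358 without it; leaving out 1 library gave 1571 to 2414 for that difference, the lowest without DMSO library 2. The cause was not tested. Of 314 named genes, 298 were called, 292 to 301 under each of 8 alternatives, none with a reversed sign. SMARCA4 missed the threshold after quantile normalisation (adjusted p = 0.0722) and with the block (0.102). Of 56 lists, 34 had more falls than rises. Depth limits genes near the floor, whose changes are understated.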

Other observations

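Further lists had these calls at 8 h, where 44.2% of all genes were called. Of 36 ion channel genes 14 fell and 4 rose (2 without DMSO library 1; 50.0% called), with the proton channel gene HVCN1 at -1.35, the calcium-permeable channel genes TRPM2 at -1.34 and TRPM4 at -1.25, and KCNAB2, a potassium channel subunit gene, at -1.35. Of 32 heat shock chaperone genes 11 rose and 5 fell (50.0% called). HSPA4 changed by 0.44, HSP90AA1 by 0.30 and the co-chaperone gene DNAJB2 by 1.12, and SERPINH1, a collagen chaperone gene, by -1.30. Of 34 hypoxia-inducible genes 13 fell and 10 rose (67.6% called), with the peptide hormone gene ADM at 1.35 and ARNT, the HIF partner, at 0.62. Among 35 cohesin and chromosome architecture genes 9 fell (5 without DMSO library 2) and 8 rose (48.6% called). TOP1 changed by 0.46, TOP2A and TOP2B each by -0.40. All named changes passed the limma test.

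By chromosome, the share of tested genes called lower ran from 92 of 511 on chromosome 5 to 29.9% on chromosome 22 (93 of 311 genes).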
